A study of Mus musculus with 23 samples.

Results

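The genes described are 10 molecular chaperones, the proteins that help other proteins fold: Hspa8, Hsp90aa1, Hsp90ab1, Hspa1a, Hspa1b and Dnajb1 of the cytosol, and Hspa5, Hsp90b1, Calr and Pdia3 of the endoplasmic reticulum (ER). They were taken by name, and not by a threshold on their values, from the 23536 genes of a single-cell table of mouse bone marrow. Earlier results of these data were known when they were chosen. The table holds CEL-seq data, in which each cell's RNA is barcoded and counted by its 3' ends, so that a level is a number of molecules and does not grow with the length of the gene. The labels name 2 groups: bone marrow cells taken by micro-dissection, and hematopoietic stem cells (HSC) sorted as Lineage- Kit+ Sca1+ CD150+ CD48-. The labels name no treatment, no genotype, no strain, no age and no animals, so each library was taken as 1 replicate. The p-values measure only spread among these libraries, which may be technical. Between classes of micro-dissected cells, that is the spread left after a term for the library.

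Cytosolic HSP70 and HSP90 proteins hold newly made and unstable proteins, such as kinases and transcription factors, while these fold. Hspa8 is the constitutive HSP70, Hsp90ab1 the constitutive HSP90, and Hsp90aa1 its more inducible partner. Dnajb1 is a J-domain co-chaperone that hands substrates to HSP70, and Hspa1a and Hspa1b are the strictly heat-inducible HSP70 pair. In the ER, Hspa5 (BiP) is the HSP70 and Hsp90b1 (GRP94) the HSP90. Calr (calreticulin) is a calcium-binding lectin that retains glycoproteins until they are folded, and Pdia3 (ERp57) is the disulfide isomerase that works with it. ER chaperone genes are classic targets of the unfolded protein response, and cells that make much secreted or granule protein, plasma cells above all, are known for a large ER.

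On the mm10 (GRCm38) assembly, the GENCODE vM21 annotation places the protein-coding genes as follows. Hspa8 lies at chr9:40800984-40810087 on the plus strand, Hsp90aa1 at chr12:110690605-110702728 and Hsp90ab1 at chr17:45567775-45573271, both on the minus strand. Dnajb1 lies at chr8:83608193-83612653 on the plus strand. Hspa1a (chr17:34969190-34972156) and Hspa1b (chr17:34956436-34959238) are neighbours on the minus strand. Hspa5 lies at chr2:34771970-34777547 and Pdia3 at chr2:121413775-121438687, both on the plus strand. Hsp90b1 lies at chr10:86690209-86705509 and Calr at chr8:84841850-84846934, both on the minus strand. The antisense gene 1810014B01Rik overlaps Hsp90b1 and Catsper2 overlaps Pdia3, and the sources used here do not state whether counting used the strand. Those overlapping genes had 18 and 2 transcripts of their own in the micro-dissected cells against 807 for Hsp90b1 and 513 for Pdia3.

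The ER members Hspa5, Calr and Hsp90b1 share a sequence feature upstream of their RefSeq start sites. For Hspa5 the GENCODE gene starts earlier, at 34771970, so that its element lies inside that gene. The ER stress response element, the letters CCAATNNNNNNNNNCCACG on either strand, is the textbook binding site of NF-Y and ATF6 in ER chaperone promoters. It was found in the RefSeq windows (250 bases before to 50 after the start, GRCm38.p6) of Hspa5, Calr and Hsp90b1, which is 3 of the 7 members with a window, and in 39 of all 32851 windows (0.119%). The 250 bases before the RefSeq start are shown for these 3 genes, 5' to 3' on the strand of the gene, with each match in capitals. They come from chr2:34771840-34772089 (plus strand) for Hspa5, chr8:84846932-84847181 (minus strand) for Calr and chr10:86705445-86705694 (minus strand) for Hsp90b1.
Hspa5: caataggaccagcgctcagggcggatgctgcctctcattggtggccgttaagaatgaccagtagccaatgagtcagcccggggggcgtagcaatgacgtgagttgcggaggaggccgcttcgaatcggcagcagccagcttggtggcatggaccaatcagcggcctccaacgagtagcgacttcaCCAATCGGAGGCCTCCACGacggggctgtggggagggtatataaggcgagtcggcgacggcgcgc
Calr: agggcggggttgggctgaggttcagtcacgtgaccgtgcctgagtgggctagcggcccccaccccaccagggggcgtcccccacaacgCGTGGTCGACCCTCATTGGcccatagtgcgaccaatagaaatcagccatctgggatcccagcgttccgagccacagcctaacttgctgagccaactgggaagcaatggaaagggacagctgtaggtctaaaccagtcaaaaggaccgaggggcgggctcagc
Hsp90b1: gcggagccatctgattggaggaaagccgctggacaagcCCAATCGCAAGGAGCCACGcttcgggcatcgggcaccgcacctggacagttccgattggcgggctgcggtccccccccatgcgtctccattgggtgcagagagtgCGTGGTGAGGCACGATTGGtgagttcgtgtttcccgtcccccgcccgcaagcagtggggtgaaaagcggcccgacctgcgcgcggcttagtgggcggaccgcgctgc
Hspa5 holds the element in the forward orientation, Calr holds it as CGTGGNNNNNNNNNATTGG, and Hsp90b1 holds 1 match in each orientation. The letters were not in the windows of Pdia3, Dnajb1, Hspa1a or Hspa1b. A heat shock element of 3 units (GAANNTTCNNGAA, either strand) was in none of the 7 windows and in 0.603% of all windows. A 2-unit form of it, GAANNTTC, was in those of Hspa1a and Hspa1b and in 7.86% of all windows. The other arrangement of 2 units, TTCNNGAA, was not searched. A match is a description of the sequence and was not linked to any value here.

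Cells with at least 1000 transcripts were kept, 707 of 1546 micro-dissected cells in 17 libraries (9032 to 313488 transcripts each) and 245 of 369 sorted cells in 4 libraries (3119 to 238770). Sorted HSC replicate 1 kept only 2 cells. No kept cell was identical to another. The genes of the sort were read in CPM, the transcripts of a gene scaled to the same total in each group. Kit stood at 486 CPM in sorted and 50.6 in micro-dissected cells, Ly6a (Sca1) at 330 and 54.6, Cd48 at 5.58 and 69.3, and Slamf1 (CD150) at 44.6 and 40.1, a gene with a transcript in 8.57% and 1.84% of the cells. Hlf, a stem cell gene, stood at 679 and 8.09. Micro-dissected cells were clustered with the chaperone genes left out, and clusters were named from marker lists, so each class is called "like" its type. These classes were 68 myeloblast and promyelocyte-like, 138 myelocyte and metamyelocyte-like, 56 mature neutrophil-like, 43 eosinophil-like, 50 monocyte and dendritic-like, 18 macrophage-like, 237 erythroblast-like and 16 plasma cell-like cells. The other classes were 8 megakaryocyte-like and 10 skeletal muscle-like cells and 63 unnamed cells, 62 of which came from libraries 1 to 5. Median depth per cell differed between classes, from 1407 transcripts in mature neutrophil-like to 5702 in promyelocyte-like cells. Means and SDs are over libraries with at least 3 cells of a class, and classes are ranked only where they are named and have at least 3 such libraries. The megakaryocyte-like and skeletal muscle-like classes had 1 such library each and were not ranked. The marker list of plasma cells includes the ER genes Txndc5 and Derl3. They were left out of the clustering but were among the leading genes that named the plasma cell-like class. With chaperone genes kept in clustering that class held 9 cells in place of 16. The 10 genes together took 0.503% of all transcripts of the micro-dissected cells and 0.670% of those of the sorted HSC.

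Of the constitutive cytosolic members, Hsp90ab1 was highest in sorted HSC and monocyte and dendritic-like cells. In the 3 sorted HSC libraries of more than 2 cells it stood at 2424, 2596 and 3138 CPM (mean 2720 ± 372 SD). In monocyte and dendritic-like cells it averaged 2398 ± 991 CPM (n = 8; 1331 to 3780), a range that contains that of the HSC. Promyelocyte-like cells followed with 1624 ± 395 (n = 9), then erythroblast-like cells with 1500 ± 616 (n = 13), eosinophil-like cells with 1489 ± 972 (n = 9) and plasma cell-like cells with 1187 ± 498 (n = 3), neighbours that differ by less than their SDs. Macrophage-like cells stood at 854 ± 214 (n = 3), and the lowest of the ranked classes were mature neutrophil-like cells at 491 ± 283 (n = 7) and myelocyte-like cells at 457 ± 265 (n = 10). The only library with 3 megakaryocyte-like cells stood lower, at 183 CPM from 7 transcripts. The erythroblast-like mean joins an early stage at 2382 ± 807 (n = 10) and a late stage at 750 ± 454 (n = 12), split further below.

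Hspa8 was ordered differently. It was highest in macrophage-like cells at 1906 ± 926 CPM (SD, n = 3), monocyte and dendritic-like cells at 1855 ± 625 (n = 8) and sorted HSC at 1726 ± 241 (n = 3), which do not differ beyond their spread. Plasma cell-like cells at 1384 ± 336 (n = 3), promyelocyte-like cells at 1367 ± 622 (n = 9), erythroblast-like cells at 1316 ± 706 (n = 13) and eosinophil-like cells at 1173 ± 747 (n = 9) formed a middle group. Of the erythroblast-like cells, the early stage stood at 2203 ± 1029 (n = 10) and the late stage at 650 ± 381 (n = 12). Myelocyte-like cells at 592 ± 217 (n = 10) and mature neutrophil-like cells at 573 ± 308 (n = 7) were again the lowest of the ranked classes, and the megakaryocyte-like library stood at 264.

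For Hsp90aa1 the highest class was the erythroblast-like cells at 1386 ± 653 CPM (SD, n = 13, lowest 554, median 1475, highest 2437). That mean joins an early stage at 2264 ± 1086 (n = 10) and a late stage at 725 ± 387 (n = 12), split further below. The late mean lies below that of the promyelocyte-like cells. Promyelocyte-like cells at 893 ± 309 (n = 9), monocyte and dendritic-like cells at 863 ± 543 (n = 8), sorted HSC at 835 ± 388 (n = 3) and eosinophil-like cells at 697 ± 566 (n = 9) lay close together. Plasma cell-like cells stood at 457 ± 454 (n = 3), myelocyte-like cells at 413 ± 237 (n = 10), macrophage-like cells at 321 ± 121 (n = 3) and mature neutrophil-like cells at 217 ± 272 (n = 7). Among the transcripts of the 3 constitutive genes, Hsp90ab1 made up 52.0% in sorted HSC and 29.5% in myelocyte-like cells.

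The ER members were ordered by class in another way, with plasma cell-like and eosinophil-like cells at the top. Hsp90b1 stood at 1675, 2312 and 3112 CPM in the 3 libraries with at least 3 plasma cell-like cells (2366 ± 720 SD), each from 3 to 5 cells. It averaged 807 ± 478 in eosinophil-like cells (n = 9), 506 ± 183 in monocyte and dendritic-like cells (n = 8), 391 ± 213 in promyelocyte-like cells (n = 9), 293 ± 281 in macrophage-like cells (n = 3), 244 ± 287 in erythroblast-like cells (n = 13; median 157) and 231 ± 123 in sorted HSC (n = 3). The erythroblast-like mean rested on library 8, with 1145 CPM from 6 transcripts in 4 cells, and was 169 ± 98 (n = 12) without it, so the order of the last 2 classes is not set. The plasma cell list summed to 21187 CPM in those 4 cells, nearly all in 1 cell (104 of 112 transcripts), and to 671 or less in the other erythroblast-like libraries; its part was not tested. The neutrophil line was lowest of the ranked classes, with 154 ± 26.5 in myelocyte-like (n = 10) and 88 ± 92 in mature neutrophil-like cells (n = 7). Every library with at least 3 plasma cell-like cells lay above the mean of every other class.

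Hspa5 showed the same leading classes, at 698, 1675 and 3516 CPM in the plasma cell-like cells (1963 ± 1431 SD) and 809 ± 428 in eosinophil-like cells (n = 9). The plasma cell values rested on few cells, since 5 of the 16 held 83.3% of that class's Hspa5 transcripts. For Hsp90b1 the 5 cells with most held 78.2%, and for Calr 67.5%. Promyelocyte-like cells at 633 ± 306 (n = 9) and macrophage-like cells at 630 ± 57 (n = 3) came next, then monocyte and dendritic-like cells at 466 ± 211 (n = 8) and erythroblast-like cells at 366 ± 90 (n = 13). Sorted HSC stood at 277 ± 56 (n = 3), myelocyte-like cells at 231 ± 105 (n = 10) and mature neutrophil-like cells at 163 ± 113 (n = 7). The megakaryocyte-like library stood at 183 for Hspa5 and 263 for Hsp90b1.

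Calr reached its highest mean in eosinophil-like cells, 2626 ± 1710 CPM (SD, n = 9; lowest 329, median 1936, highest 5449). Plasma cell-like cells followed at 1323, 2007 and 2032 (1787 ± 402), then promyelocyte-like cells at 1403 ± 476 (n = 9), monocyte and dendritic-like cells at 1078 ± 591 (n = 8), macrophage-like cells at 944 ± 231 (n = 3) and sorted HSC at 618 ± 51.5 (n = 3). Erythroblast-like cells at 352 ± 200 (n = 13), mature neutrophil-like cells at 164 ± 115 (n = 7) and myelocyte-like cells at 140 ± 76 (n = 10) were the lowest ranked, with 157 in the megakaryocyte-like library. Pdia3 spanned a smaller range of means over the ranked classes, from 466 ± 225 in eosinophil-like cells (n = 9) and 400 ± 205 in plasma cell-like cells (n = 3) to 99 ± 86 in myelocyte-like cells (n = 10), and stood at 26.0 in the megakaryocyte-like library. Of the 43 eosinophil-like cells 14 had no Calr transcript, and 5 cells held 66.0% of the class's Calr transcripts. In promyelocyte-like cells 3 of 68 had none, and 5 cells held 27.3%. These values were not scaled for depth, and the eosinophil-like cells were fewer and shallower (median 2199 against 5702 transcripts). With cells thinned to equal depth, Calr was detected in 60.5% of eosinophil-like and 76.5% of promyelocyte-like cells. Variation between cells was not tested apart from depth and class size.

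**Figure D1:**
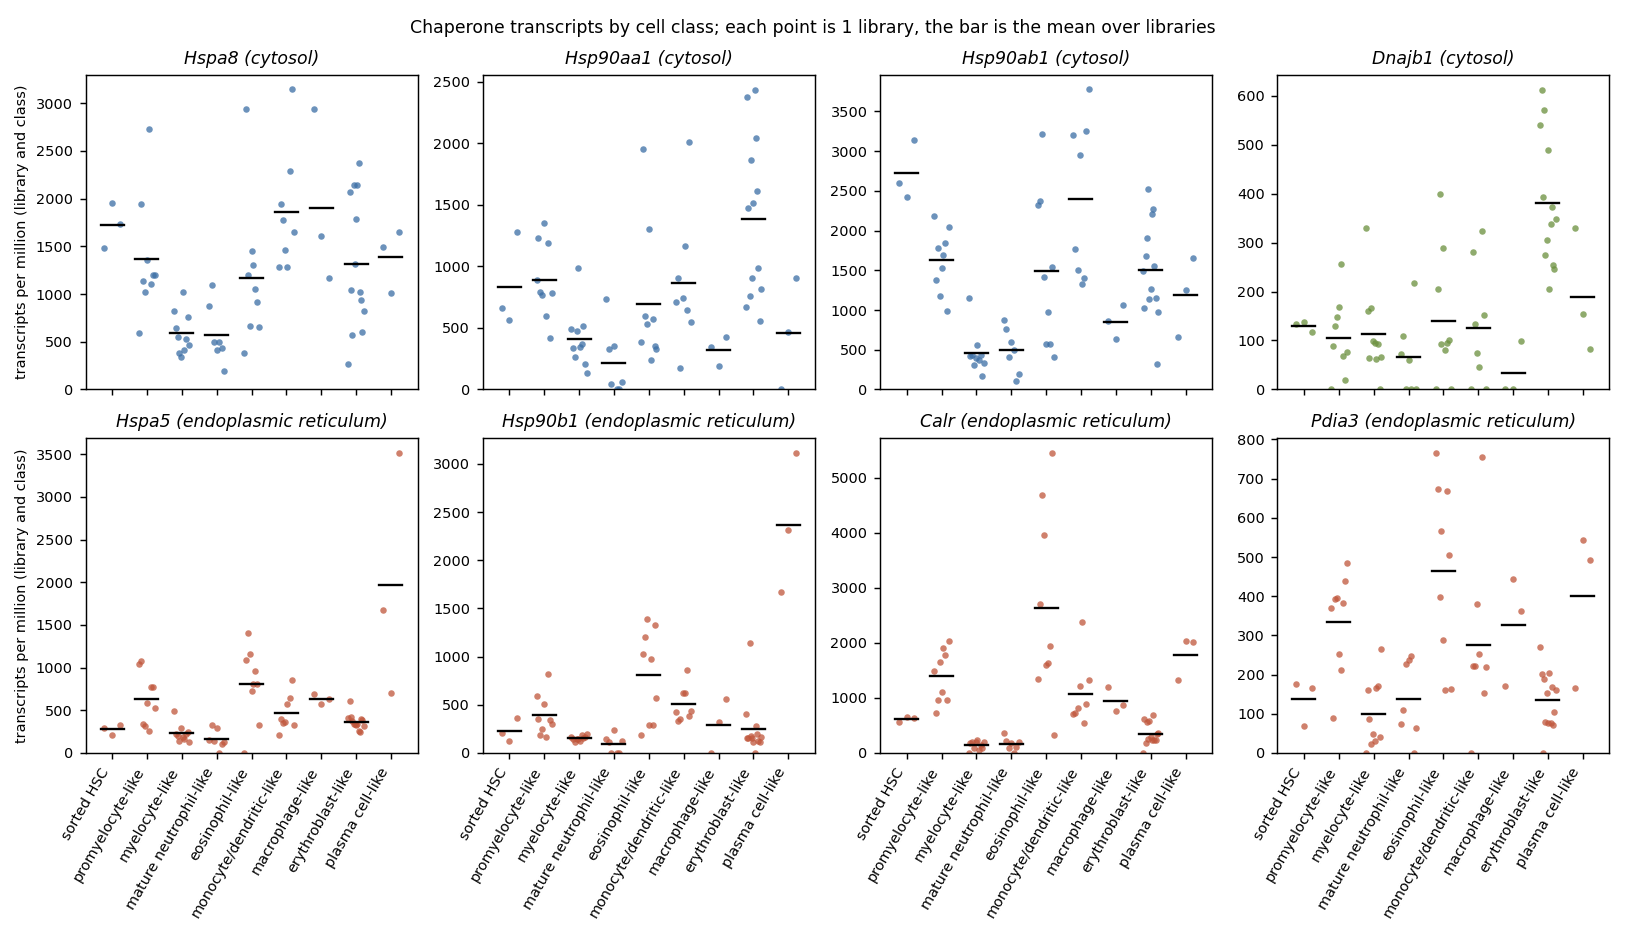
Level of 8 chaperone genes in each cell class, in CPM on a linear axis that differs between genes; each point is 1 library with at least 3 cells of the class and each bar is the mean over libraries. Of the classes plotted, Hspa8 and Hsp90ab1 are lowest in the myelocyte-like and mature neutrophil-like cells, and the ER genes are highest in plasma cell-like and eosinophil-like cells.

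The balance of the 2 compartments was described by the log2 ratio of the summed transcripts of the 4 ER members to those of the 3 constitutive cytosolic members in each library. It averaged 1.11 ± 0.07 (SD) over the 3 libraries with at least 3 plasma cell-like cells, all above 0. In eosinophil-like cells it averaged 0.43 ± 0.74 over 9 libraries, of which 6 were above 0, from -0.43 to 1.53. All other classes had means below 0. Macrophage-like cells stood at -0.45 ± 0.48 (n = 3), promyelocyte-like cells at -0.50 ± 0.43 (n = 9), mature neutrophil-like cells at -0.94 ± 0.79 (n = 5), monocyte and dendritic-like cells at -1.16 ± 0.65 (n = 8) and myelocyte-like cells at -1.19 ± 0.47 (n = 10). Erythroblast-like cells at -1.89 ± 0.83 (n = 13) and sorted HSC at -2.07 ± 0.14 (n = 3) were the most cytosolic of the ranked classes. Without library 8 the erythroblast-like mean was -2.01 ± 0.75 (n = 12). The erythroblast stages differed, at -2.66 ± 0.73 early (n = 10) and -1.17 ± 0.81 late (n = 12). As a share of the transcripts of the 7 genes, the ER members took 67.7% in plasma cell-like cells, 60.9% in eosinophil-like cells, 42.9% in promyelocyte-like cells and 19.6% in sorted HSC.

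The ER total was made of different genes in different classes. Calr gave 51.5% of the ER transcripts in promyelocyte-like cells and 54.4% in eosinophil-like cells but 24.9% in myelocyte-like cells, and Hsp90b1 gave 38.1% in plasma cell-like cells. The ratio of the eosinophil-like cells turned to -0.20 (2 libraries) with cells of at least 2000 transcripts and to -0.11 (8 libraries) with cells of 1000 to 5000, so its sign depended on which cells were kept. No p-value is given for the ratio, since it is a score over chosen genes. Markers of other cells were present in the plasma cell-like class: the B cell list summed to 3108 CPM (2141 to 6628 per library, 8 of 12 genes detected, with Igll1, Pax5, Rag1 and Dntt at 0) and the myelocyte list to 4973 CPM (2464 to 7283, 10 of 12 genes, with Ltb4r1 and Cd177 at 0). The eosinophil list summed to 8000 CPM in monocyte and dendritic-like cells (0 to 53094, 6 of 9 genes, with Ear10, Il5ra and Ccr3 at 0), and the erythroblast list to 11550 in macrophage-like cells (8117 to 15982, 20 of 20 genes). The part of these other cells' transcripts in the values of those classes was not tested.

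**Figure D2:**
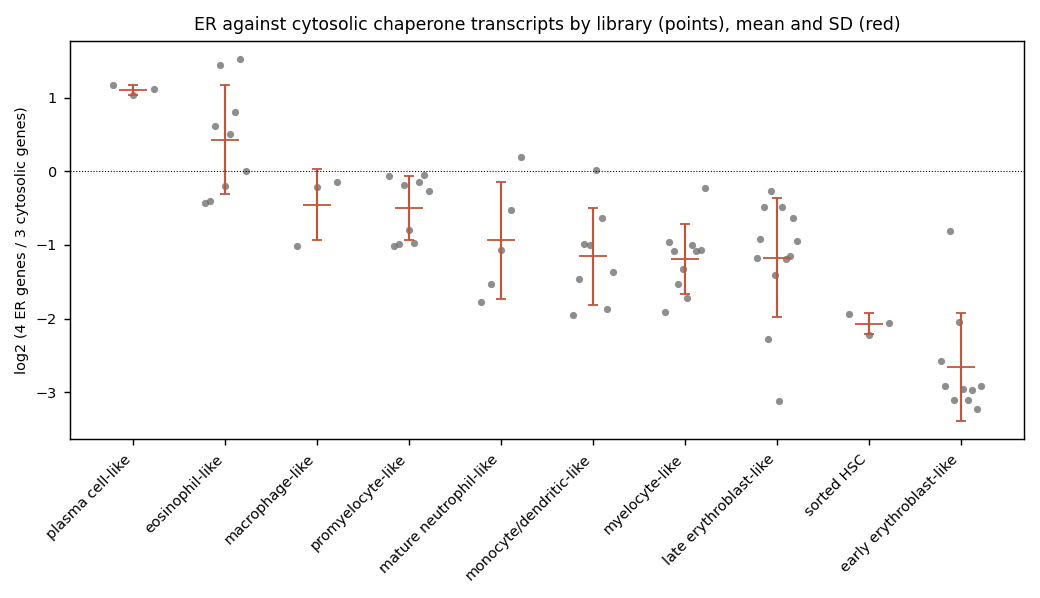
Log2 ratio of ER to constitutive cytosolic chaperone transcripts in each library, by cell class and by erythroblast stage; each point is 1 library, and red bars are the mean and SD over libraries. The 3 plasma cell-like points lie between 1.04 and 1.17, and the HSC and early erythroblast points all lie below 0.

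In the neutrophil line, the step from promyelocyte-like to myelocyte-like cells carried lower levels of 7 of the 8 members tested. Promyelocytes are the stage that makes the primary granules, and myelocytes make the secondary granules. Calr showed the largest difference. Its 9 promyelocyte-like library values ran from 721 to 2029 CPM (median 1493) and its 10 myelocyte-like values from 0 to 237 (median 166), with no overlap. On the log2 scale Calr fell by 2.82 ± 0.37 (SE; edgeR adjusted p = 1.5e-08), and it was lower in 7 of the 7 libraries that hold both classes. Hsp90ab1 ran from 985 to 2180 CPM (median 1688) in the first class and from 166 to 1154 (median 404) in the second, with ranges that overlap through a single myelocyte-like library. It fell by 1.66 ± 0.27 on the log2 scale (edgeR adjusted p = 4.4e-07), again in 7 of 7 libraries.

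The other 5 members that passed the test in that step were Pdia3 (log2 difference -1.36 ± 0.35 SE), Hspa5 (-1.11 ± 0.29), Hsp90b1 (-0.97 ± 0.35), Hspa8 (-0.93 ± 0.23) and Hsp90aa1 (-0.72 ± 0.29), each lower in 7 of 7 shared libraries. Of all 1067 genes tested, 43.2% passed an adjusted p of 0.05 in either direction and 20.8% were lower (22.4% higher). Dnajb1 did not pass (0.31 ± 0.41, edgeR adjusted p = 0.582). Scaled by library totals instead of TMM, the median gene moved by -0.47 and the calls went from 239 higher and 222 lower to 131 and 385, while the same 7 members were lower. The 2 classes also differed in depth, with medians of 5702 and 2668 transcripts per cell. Among cells of 1000 to 5000 transcripts, Calr (-2.23, edgeR adjusted p = 0.00013) and Hsp90ab1 (-1.13, adjusted p = 0.0104) were still lower, while Hspa8 (-0.20), Hspa5 (-0.17), Hsp90aa1 (0.12) and Hsp90b1 (0.30) did not pass and Pdia3 was not tested. The median gene stood at 0.98 among those cells and at 0.11 in the full comparison. The Hsp90aa1 call also ended when library 4, 7, 8, 10, 11, 13, 14, 15, 16 or 17 was left out (adjusted p from 0.0518 to 0.344), and the Hsp90b1 call without 4, 8, 10, 11, 13, 15, 16 or 17 (0.0526 to 0.318).

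From myelocyte-like to mature neutrophil-like cells none of the 8 members tested passed in edgeR (1 at an unadjusted p under 0.05, 0 in DESeq2), against 37.7% of all genes (8.06% higher, 29.6% lower). The differences ran from -1.14 ± 0.68 (SE) for Dnajb1 to 0.02 ± 0.53 for Pdia3, and the smallest adjusted p was 0.0869 (edgeR), for Hsp90aa1 at -0.98 ± 0.46. Hsp90aa1 passed, lower, without libraries 1 to 5 (adjusted p = 0.00992), and 1 or 2 members passed without library 3, 7 or 10. Hsp90ab1 differed by -0.16 ± 0.38 and Calr by -0.04 ± 0.60, so changes of about 1 log2 unit in Calr lie within 2 SEs. Compared directly with promyelocyte-like cells, mature neutrophil-like cells were lower for 7 of 8 members, against 61.2% of all genes called, 39.3% lower and 21.9% higher. Calr fell by 2.86 ± 0.53 (edgeR adjusted p = 6.9e-06) and Hsp90ab1 by 1.82 ± 0.35 (adjusted p = 9.2e-06), both without overlap between the libraries of the 2 classes. These 2 alone passed among cells of 1000 to 5000 transcripts, Calr at -2.13 (edgeR adjusted p = 0.00181) and Hsp90ab1 at -0.99 (adjusted p = 0.0393). Of the other calls, Pdia3 was lost without library 4, 8, 11, 13, 15, 16 or 17, Hsp90b1 without 15 or 16 and Hspa5 without 16. The sum of 16 immediate-early genes, which respond to handling among other stimuli, was 4885 CPM in mature neutrophil-like cells (3222 to 6597 over libraries) and 471 in promyelocyte-like cells (340 to 802), and its part in these differences was not tested.

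Shares of cells were also taken after thinning cells to 1000 tags, which need not give the order of the means. Cells with fewer tags were left out, so that 219 of 237 erythroblast-like and 135 of 138 myelocyte-like cells were used. Calr was then detected in 81.3% of plasma cell-like, 60.5% of eosinophil-like, 76.5% of promyelocyte-like, 16.3% of myelocyte-like, 43.3% of sorted HSC and 29.2% of erythroblast-like cells. Hsp90ab1 was detected in 67.6% of promyelocyte-like, 39.3% of myelocyte-like and 92.2% of sorted HSC.

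Erythroblast-like cells, the precursors of red cells, with early and late stages joined, had higher Hsp90aa1 and Dnajb1 and lower ER members than promyelocyte-like cells. Of the 8 members tested 6 passed, against 61.5% of all genes (28.3% higher, 33.2% lower). Dnajb1 stood between 205 and 612 CPM (median 349; mean 381 ± 133 SD, n = 13) in the erythroblast-like cells, while in promyelocyte-like cells it averaged 106 ± 79 (n = 9). It rose by 1.87 ± 0.33 on the log2 scale (SE; edgeR adjusted p = 5.6e-07) and was higher in 8 of 8 shared libraries. Erythroblast-like cells had the highest Dnajb1 mean of the named classes, above plasma cell-like cells at 189 ± 127 (n = 3) and sorted HSC at 129 ± 10.9 (n = 3). Thinned to 1000 tags, Dnajb1 was found in 34.2% of erythroblast-like, 12.6% of myelocyte-like, 9.39% of sorted HSC and 4.41% of promyelocyte-like cells.

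Hsp90aa1 rose by 0.86 ± 0.25 on the log2 scale (SE; edgeR adjusted p = 0.00225), higher in 7 of 8 shared libraries. It did not pass without the deepest 5% of cells (0.30, adjusted p = 0.256) or with at least 5 cells per library (0.51, adjusted p = 0.0519). Hspa8 (0.10 ± 0.20) and Hsp90ab1 (-0.09 ± 0.23) did not pass. For these 3 genes the early means lay above and the late means below those of the promyelocyte-like cells. In CPM, Hsp90aa1 stood at 2264 early and 725 late (promyelocyte-like 893), Hspa8 at 2203 and 650 (1367) and Hsp90ab1 at 2382 and 750 (1624). The stages were not tested apart against promyelocyte-like cells. Of the ER members, Calr fell by 1.73 ± 0.31 (edgeR adjusted p = 1.9e-06) with no overlap and in 8 of 8 shared libraries. Pdia3 fell by 1.31 ± 0.31 (adjusted p = 0.000127), Hsp90b1 by 0.95 ± 0.31 (adjusted p = 0.00595), each in 7 of 8 shared libraries, and Hspa5 by 0.55 ± 0.25 (adjusted p = 0.0457), lower in 5 of 8 and higher in 3. Among cells of 1000 to 5000 transcripts Hspa5 stood at 0.014 and Hsp90b1 at -0.04, neither of which passed. The Hspa5 call was also lost without library 2, 3, 4, 8, 13, 14, 15, 16 or 17 (adjusted p from 0.0511 to 0.165), and that of Hsp90b1 without library 15 (0.0878).

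**Figure D3:**
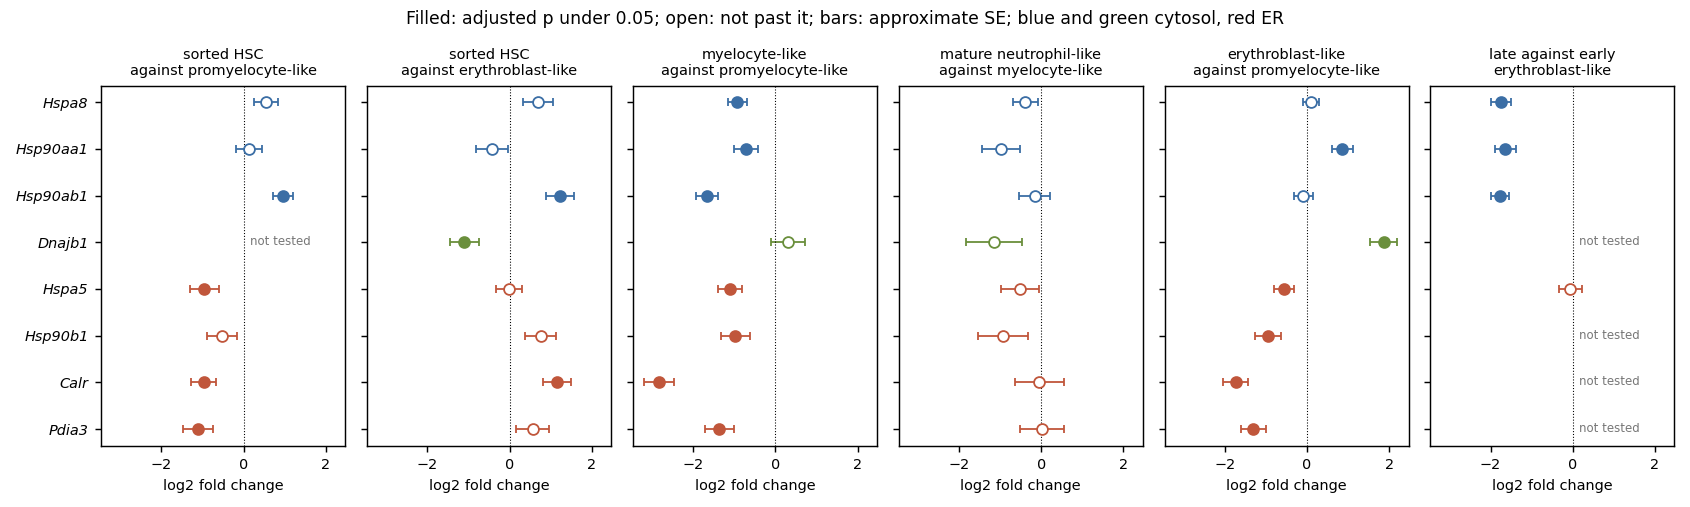
Log2 fold change of each tested chaperone gene in 6 of the 9 comparisons, with bars of 1 approximate standard error; filled points passed an edgeR adjusted p of 0.05, and colors separate cytosolic (blue, green) from ER genes (red). In the myelocyte comparison 7 of 8 genes lie below 0, in the late erythroblast comparison the 3 cytosolic genes do while Hspa5 lies at -0.06, and in the erythroblast comparison Dnajb1 stands at 1.87 and Calr at -1.73.

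Within the red cell line the constitutive cytosolic members were lower in the later stage. Cells with more Car1 than Slc4a1 transcripts were taken as early (40 cells) and the others with either gene as late (194 cells); 7 cells lay within 1 transcript of the boundary and 3 had neither gene. Hsp90ab1 stood between 1271 and 3613 CPM in 10 early libraries (median 2565) and between 318 and 1646 in 12 late libraries (median 609). It fell by 1.78 ± 0.22 on the log2 scale (SE; edgeR adjusted p = 1.3e-08). Hspa8 stood between 253 and 3867 CPM in the early libraries (median 2205) and between 81.5 and 1369 in the late ones (median 574), and fell by 1.74 ± 0.25 (edgeR adjusted p = 3.0e-07). The early value of 253 is a single transcript in library 8, which had 3 early cells. Hsp90aa1 ran from 253 to 3748 (median 2349) in the early and from 226 to 1796 (median 655) in the late libraries, and fell by 1.64 ± 0.26 (edgeR adjusted p = 2.1e-06). Each of the 3 genes was lower in 9 of the 9 libraries that hold both stages, though their ranges overlap. In this comparison 76.4% of the 394 genes tested were called, 36.8% lower and 39.6% higher.

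Hspa5 was the only ER member that passed the filter on low counts per library between the stages. It averaged 402 ± 136 CPM early (SD, n = 10) and 337 ± 127 late (n = 12), a log2 difference of -0.06 ± 0.29 (SE; edgeR adjusted p = 0.854). The other ER members had means of 307 ± 174 and 371 ± 259 for Calr, 167 ± 99 and 152 ± 103 for Hsp90b1, and 132 ± 106 and 99.8 ± 99 for Pdia3, early and late, which differ by less than their SDs. Dnajb1 averaged 344 ± 247 and 422 ± 167 and fell under the filter on low counts; it entered the test, and passed as higher in late cells, when library 9, 10, 12 or 15 was left out (0.72 to 0.83 on the log2 scale), but not with no filter (0.84, edgeR adjusted p = 0.0862). The ratio of ER to cytosolic transcripts was -2.66 ± 0.73 early (n = 10; -2.87 ± 0.36 without library 8) and -1.17 ± 0.81 late (n = 12), and the ER share of the 7 genes 12.7% and 33.4%. Early cells were deeper than late cells, at medians of 5393 and 1696 transcripts. Among cells of 1000 to 5000 transcripts the differences were -1.79 for Hspa8 (edgeR adjusted p = 0.0337), -1.89 for Hsp90aa1 (adjusted p = 0.00425) and -1.50 for Hsp90ab1 (adjusted p = 0.0184). Thinned to 1000 tags, Hspa8 was found in 87.5% of early and 34.7% of late cells, and Hsp90ab1 in 87.5% and 36.4%. These shares used all 40 early but 176 of the 194 late cells, those with enough tags.

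**Figure D4:**
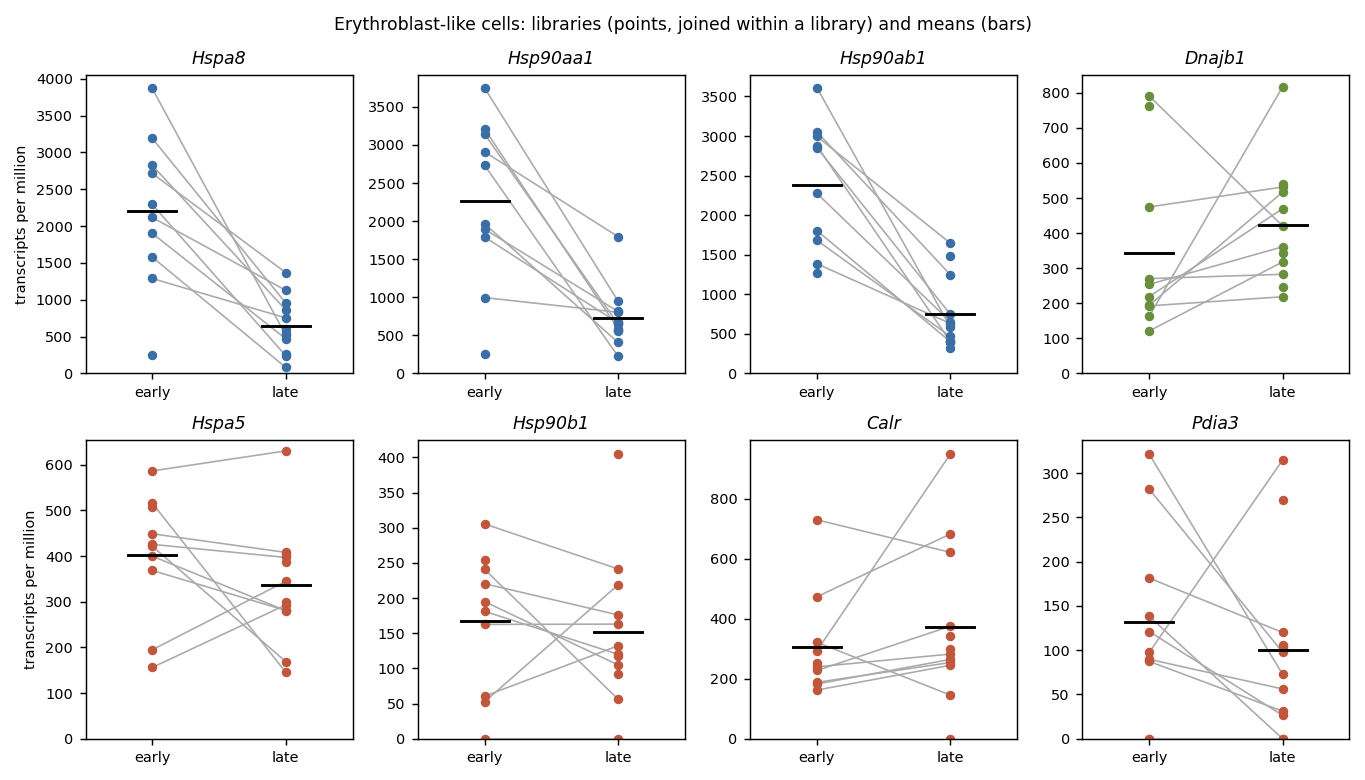
Levels of 8 chaperone genes in early and late erythroblast-like cells in CPM; points are libraries, bars are means, and lines join the 2 stages of a library that holds both. For Hspa8, Hsp90aa1 and Hsp90ab1 all 9 lines go down from early to late, and for Hspa5 they go down in 6 and up in 3.

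Eosinophil-like cells, whose granules are filled with secreted basic proteins, had higher Hsp90b1 and Calr than promyelocyte-like cells, but the calls were not stable. Hsp90b1 differed by 1.28 ± 0.33 on the log2 scale (SE; edgeR adjusted p = 0.00208) and Calr by 1.03 ± 0.33 (adjusted p = 0.0237), 2 of 8 members against 14.5% of all genes (7.69% higher, 6.84% lower). They were higher in 5 and 4 of the 7 shared libraries. The Hspa5 difference was 0.56 ± 0.28 and the Pdia3 difference 0.43 ± 0.35, neither past the threshold, and the cytosolic members lay between -0.22 and 0.32. Hsp90b1 did not pass without library 10 (0.91, edgeR adjusted p = 0.104), nor Calr without library 4, 10, 12 or 16 (adjusted p from 0.0513 to 0.167). With cells of 1000 to 5000 transcripts Hsp90b1 stood at 0.99 (adjusted p = 0.259) and Calr at 0.14 (adjusted p = 0.89). The immediate-early genes summed to 2144 CPM in the eosinophil-like cells, from 399 to 10152 over libraries, and their part was not tested. The neutrophil, erythroblast and eosinophil comparisons share the promyelocyte-like libraries, so their values are not independent.

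Sorted HSC were set against all micro-dissected cells, and against 2 chosen classes of precursors, promyelocyte-like and erythroblast-like cells. Other classes with enough cells were not tested against HSC, among them the monocyte and dendritic-like cells, with Hsp90ab1 at 2398 ± 991 CPM (SD). Hsp90ab1 was higher in HSC in each of the comparisons made. All 4 HSC libraries (2424, 2596, 3138 and, from 2 cells, 4556 CPM) lay above all 17 micro-dissected libraries, a log2 difference of 0.86 ± 0.25 (SE; edgeR adjusted p = 0.00863). This was 1 of 8 members tested, against 30.4% of all genes called and 11.2% higher (19.2% lower). The other 7 did not pass, the nearest being Hspa5 at -0.83 ± 0.35 (adjusted p = 0.0668), and Hspa8 stood at 0.55 ± 0.32. In simulated counts for this comparison only 7.78% of genes changed 2-fold were called, so a change of that size could easily be missed. Scaled by library totals, the median gene moved by 0.33, the calls went from 408 higher and 698 lower to 754 and 558, and Hspa8 then passed at 1.09 (edgeR adjusted p = 0.0045). The Hsp90ab1 call was lost with cells of at least 2000 transcripts (0.86, adjusted p = 0.0677) and with no filter on low counts (0.65, adjusted p = 0.183). The groups also differ in isolation and, in part, in sequencer, which cannot be told apart from cell type.

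Against promyelocyte-like cells, HSC were higher for Hsp90ab1 and lower for 3 of the 4 ER members, which is 4 of 7 members tested against 45.3% of all genes (20.5% higher, 24.8% lower). Hsp90ab1 differed by 0.96 ± 0.25 on the log2 scale (SE; edgeR adjusted p = 0.00185) with no overlap of libraries. Calr stood at 561, 631 and 661 CPM in the HSC, below all 9 promyelocyte-like libraries, and differed by -0.98 ± 0.30 (edgeR adjusted p = 0.00799). Pdia3 differed by -1.11 ± 0.36 (adjusted p = 0.0105) and Hspa5 by -0.96 ± 0.35 (adjusted p = 0.0234), while Hsp90b1 at -0.52 ± 0.37 did not pass. Leaving out HSC replicate 3, 4 or 5 ended the Hspa5 call (adjusted p from 0.0534 to 0.0823), leaving out replicate 3 that of Calr (0.0663) and leaving out replicate 4 that of Pdia3 (0.06).

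Against erythroblast-like cells, HSC were higher for Hsp90ab1 (1.24 ± 0.34 SE, edgeR adjusted p = 0.00212) and Calr (1.15 ± 0.34, adjusted p = 0.00414) and lower for Dnajb1 (-1.10 ± 0.36, adjusted p = 0.0094). These were 3 of 8 members tested, against 51.1% of all genes (23.9% higher, 27.2% lower). Most erythroblast-like cells were late (194 of 237), and the stages were not tested apart against HSC. Hsp90ab1 averaged 2382 ± 807 CPM early (SD, n = 10, from 1271 to 3613) and 750 ± 454 late (n = 12), against 2720 ± 372 in HSC. The early range contains that of the HSC. Hspa8 averaged 2203 early and 650 late, against 1726. Calr (307 early, 371 late) lay below the HSC mean of 618 at both stages, and Dnajb1 (344, 422) above that of 129. The 3 HSC libraries lay below all 13 erythroblast-like libraries in Dnajb1, and that call was lost without HSC replicate 3 or 5 (adjusted p of 0.0619 and 0.0868) and with cells of at least 2000 transcripts (-0.56, adjusted p = 0.249). Among cells of 1000 to 5000 transcripts Hspa8 (1.79, edgeR adjusted p = 1.6e-05) and Hsp90b1 (1.12, adjusted p = 0.0174) were higher as well. That setting leaves out early erythroblast-like cells above 5000 transcripts, and the early median was 5393. Without micro-dissected library 8 Hsp90b1 was higher too (1.04, edgeR adjusted p = 0.0128), against 0.76 and 0.0906 with that library. Both comparisons share the HSC libraries.

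The strictly heat-inducible pair was rarely detected. Hspa1a gave 19 transcripts in 10 of 707 micro-dissected cells (1.41%, exact binomial interval 0.680 to 2.59%) and Hspa1b 13 transcripts in 11 cells (1.56%). Neither had a transcript in the 245 sorted HSC, which allows a share of cells with a transcript of up to 1.22% (a limit of 3 counts; the exact binomial upper limit is 1.49%). This covers counting error and is no limit on cells that express the gene. A single cell held 6.07 of the Hspa1a transcripts, and no comparison had enough counts to test the pair. Their promoter windows were identical at 296 of 300 bases, and transcripts of such close copies may not be split reliably between the 2 genes. Dnajb1, the other inducible gene, was found in 247 micro-dissected cells (34.9%) and 58 sorted HSC (23.7%).

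Other genes of protein folding were read from lists. In myelocyte-like against promyelocyte-like cells, 5 of 9 other ER folding genes tested were lower and none higher (median -1.36 on the log2 scale, against 0.11 for all genes), among them the disulfide isomerases Pdia6 (-2.66 ± 0.34 SE) and P4hb (-1.56 ± 0.29) and the folding factor Manf (-2.27 ± 0.47). Of all genes in that comparison 20.8% were lower. Of 16 genes of ER translocation and glycosylation 10 were lower (median -1.25), including the translocon-associated Ssr2 (-2.13 ± 0.40), Ssr4 (-2.12 ± 0.42) and the translocon subunit Sec61b (-1.46 ± 0.29). Among cells of 1000 to 5000 transcripts Manf, P4hb and Sec61b did not pass (edgeR adjusted p of 0.061, 0.079 and 0.179). The mitochondrial co-chaperonin Hspe1 was lower by -1.83 ± 0.42. Mature neutrophil-like cells were lower than promyelocyte-like cells for 7 of 9 and 11 of 16 genes of the 2 ER lists, where 39.3% of all genes were lower, with Pdia6 at -4.68 ± 0.77 and the signal peptidase subunit Spcs2 at -4.66 ± 0.70.

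In erythroblast-like against promyelocyte-like cells, 6 of 9 other ER folding genes and 13 of 16 translocation genes were lower, and 1 translocation gene, Sec61g, was higher (0.83 ± 0.23 SE), where 33.2% of all genes were lower and 28.3% higher. P4hb stood at -2.46 ± 0.28, Pdia6 at -2.38 ± 0.29 and Sdf2l1, a partner of Hspa5, at -3.25 ± 0.53. Genes of the unfolded protein response were split. The phosphatase subunit Ppp1r15a, which restores translation after stress, was higher by 6.02 ± 0.46, and the transcription factor Atf4 by 1.04 ± 0.25, whereas Xbp1 (-2.40 ± 0.34), the transcription factor of secretory cells, and Edem1 (-2.01 ± 0.43), of ER-associated degradation, were lower. The 5 genes of this list that could be tested had a median of 0.04, as did all genes. Ppp1r15a and Atf4 were also higher in late than in early erythroblast-like cells, by 3.01 ± 0.29 and 1.37 ± 0.23, and in eosinophil-like than in promyelocyte-like cells, by 2.42 ± 0.80 and 1.37 ± 0.29.

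HSC were lower than promyelocyte-like cells for 5 of 9 other ER folding genes (median -1.15 against -0.08), among them the oxidase Ero1l (-2.76 ± 0.42 SE), Sdf2l1 (-2.04 ± 0.50) and P4hb (-1.68 ± 0.32), and for 6 of 17 translocation genes, where 24.8% of all genes were lower and 20.5% higher. They were higher for 3 of 8 genes of the CCT chaperonin and prefoldin, which fold actin and tubulin, including Cct4 (1.22 ± 0.40) and Pfdn5 (1.22 ± 0.30), and for the mitochondrial chaperones Hspa9 (1.81 ± 0.45) and Hspe1 (0.99 ± 0.33). The HSP90 co-chaperone Ptges3 was higher by 1.04 ± 0.38. Against erythroblast-like cells, HSC were higher for Pdia6 (1.69 ± 0.37), P4hb (1.10 ± 0.41) and Xbp1 (2.08 ± 0.48) and lower for Sec61g (-1.76 ± 0.40) and Ppp1r15a (-3.55 ± 0.53).

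Genes whose levels followed the members over 10 classes were found by Pearson's r of log2(CPM + 10) across 3485 genes, as a description of classes that share libraries. The summed ER members were most like Mia3 (r = 0.93), Calu (0.91), Gorasp2 (0.90), Srp9 (0.88) and Cope (0.88). Mia3 and Gorasp2 encode proteins of ER exit and the Golgi, Calu an ER calcium-binding protein, Srp9 a subunit of the signal recognition particle and Cope a coatomer subunit. Calu was highest in eosinophil-like cells at 242 CPM and the other 4 in plasma cell-like cells. The summed constitutive cytosolic members were most like Rpl15 (0.98), Rpl23 (0.97), Tial1 (0.97), Rpl19 (0.97) and Rplp1 (0.96), of which 4 encode ribosomal proteins, all highest in sorted HSC and lowest in mature neutrophil-like cells. In mature neutrophil-like cells Calu, Gorasp2 and Tial1 stood at 10.6 CPM, the level of 1 transcript in that class, so their r rests in part on very low counts.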

How the data were processed

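The authors deposited expected counts per gene and cell: per the labels these come from CEL-seq, and the values follow a correction for tags drawn more than once out of 256, so they need not be whole. Per the submitters' processing notes BWA 0.6.2-r126 and build mm10 were used; the steps from reads to table and the strand used in counting were not stated. Micro-dissected replicate 18 and sorted HSC replicate 2 were not analysed here. Replicate numbers follow accession order and pair nothing.

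The minimum was 1000 transcripts per cell, and no doublet filter was applied. Micro-dissected cells were clustered with scanpy 1.11.5 (2000 variable genes without chaperones, 30 components, 15 neighbours, Leiden resolution 1) and named from marker lists. Expected counts were summed per library and class (at least 3 cells), rounded, and tested with edgeR 4.0.16 in R 4.3.3 (TMM, filterByExpr, robust quasi-likelihood, library as a term within micro-dissected cells), with Benjamini-Hochberg adjustment over all genes tested and a threshold of 0.05. Members removed by the filter are called not tested. The SE is the log2 change over the square root of F. Scripts were tested on simulated data. DESeq2 1.42.0, library totals, no filter, other depth and cell minimums, other clusterings, no library term and leaving out each library were alternatives. Cells of 1000 to 5000 transcripts were chosen as an alternative after seeing the data. Intervals are exact binomial (Clopper-Pearson, 95%), and they and the limit from 3 counts cover counting error only.

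The members, gene lists, marker lists and tests were chosen with earlier results of these data known. The text names all members, and of each wider list genes among its 3 most abundant and the 2 most changed each way.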

Additional observations from a re-analysis of the deposited data

Results flagged for a closer look

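In groups of 4 to 10 libraries, a library standing apart from all others by Dixon's criterion was looked for in 64 combinations of gene and class, and 9 were found; chance gives about 1 in 20. All values are CPM. Of these, 4 lay in myelocyte-like cells, and 3 of those in library 8, which held 5 such cells. In library 8 Hsp90ab1 stood at 1154 (7 transcripts; next highest 555), Hspa5 at 494 (3 transcripts; next 295) and Dnajb1 at 329 (2 transcripts; next 166). Hsp90aa1 in library 12 stood at 986 (20 transcripts in 13 cells; next 516). Hspa8 in the eosinophil-like cells of library 4 stood at 2945 (58 transcripts in 4 cells; next 1447), and Calr in the monocyte and dendritic-like cells of library 11 at 2387 (104 transcripts in 9 cells; next 1329). The other 3 belong to sorted HSC replicate 1, of 2 cells: Dnajb1 at 0 (next 117), Calr at 0 (next 561) and Pdia3 at 1289, from 4 transcripts (next 176). That library enters only the comparison of all sorted with all micro-dissected cells.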

How the results depend on the processing

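No share of all genes under the same setting stands beside the member counts below, so they show only how the calls moved. Members past the threshold, of 8 unless stated, changed as follows. HSC against micro-dissected cells (1): 2 with library totals, with DESeq2 and with cells of 1000 to 5000 transcripts, 0 without the filter and with at least 2000 transcripts. HSC against promyelocyte-like (4 of 7): 2 without the filter, 3 with DESeq2, which did not call Hspa5. HSC against erythroblast-like (3): 5 without the deepest 5% of cells, with chaperones kept in clustering and at 1000 to 5000. DESeq2 called 6 in myelocyte-like cells, without Hsp90aa1. Myelocyte-like (7), mature neutrophil-like (7) and erythroblast-like (6) against promyelocyte-like: 2 each at 1000 to 5000. Mature neutrophil-like against myelocyte-like (0): 1 without libraries 1 to 5, 2 with at least 5 cells and at Leiden resolution 2. Eosinophil-like (2): 0 without the filter, with at least 2000, without the deepest cells, at resolution 2 and at 1000 to 5000, 1 with chaperones kept.

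Calls over all genes, in the same order of comparisons, were 1106, 565, 890, 461, 402, 653, 656, 155 and, late against early, 301. The number of genes tested also changed with settings such as the filter, so these are counts and not shares. Without the filter they were 2838, 2853, 5024 for the HSC comparisons, 1498 for mature neutrophil-like against promyelocyte-like, 2412 for erythroblast-like, 323 for eosinophil-like and 771 for late against early. With at least 2000 transcripts they were 584 (HSC against micro-dissected), 481 (HSC against erythroblast-like), 64 (eosinophil-like) and 151 (late). At 1000 to 5000 they were 179 (HSC against promyelocyte-like), 222, 160, 329, 307, 86 and 66 for the comparisons within micro-dissected cells. With at least 5 cells they were 1199 (erythroblast-like) and 149 (late), and without the deepest cells 200 (late). At 1000 to 5000 the signs of Hsp90aa1 (0.12) and Hsp90b1 (0.30) in myelocyte-like, Hspa5 (0.014) in erythroblast-like cells and Hspe1 (1.52) in HSC against erythroblast-like cells reversed. The eosinophil-like ratio was -0.20 with at least 2000 and -0.11 at 1000 to 5000; the plasma cell-like ratio was 0.97 with at least 2000 and 1.73 with chaperones kept. The cause was not tested. Library totals moved the median gene by 0.37 in mature against myelocyte-like cells (86 higher and 316 lower became 146 and 194) and by -0.14 in eosinophil-like cells (82 and 73 became 73 and 109).

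Leaving out each library gave, in the same order, 1 to 1, 2 to 5, 2 to 5, 5 to 7, 0 to 2, 4 to 7, 4 to 6, 0 to 2 and 3 to 4 members, and 743 to 1454, 467 to 587, 726 to 966, 406 to 527, 306 to 483, 568 to 778, 578 to 792, 124 to 170 and 261 to 329 genes. Member counts moved by over 1.5 times without HSC replicate 3 or 4 (against promyelocyte-like), library 13 (HSC against erythroblast-like), 3, 7 or 10 (mature against myelocyte-like), 16 (mature against promyelocyte-like) and 4, 10, 12 or 16 (eosinophil-like). Calls lost most often were Hsp90aa1 (10 of 17) and Hsp90b1 (8 of 17) in myelocyte-like, Hspa5 (9 of 17) in erythroblast-like and Pdia3 (7 of 17) in mature neutrophil-like cells.

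Replicate numbers name no pairs across the groups. The replicate block within micro-dissected cells is the library itself; without this block Hsp90aa1 in myelocyte-like cells stood at -0.82 (edgeR adjusted p = 0.0605), and no other call of a member was lost. No paired analysis was possible because HSC and micro-dissected cells share no library. A minimum of 500 transcripts was run only for HSC against micro-dissected cells. The filter on low counts per library left Dnajb1, Calr, Hsp90b1 and Pdia3 out of the test of erythroblast stages and Hspa1a and Hspa1b out of every test.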
